A study of Mus musculus with 8 samples.

Results

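The genes described here set and remove methyl groups on cytosine in DNA: the methyltransferase genes Dnmt1, Dnmt3a and Dnmt3b, the cofactor genes Dnmt3l and Uhrf1, the dioxygenase genes Tet1, Tet2 and Tet3, and the glycosylase gene Tdg. They were listed by name. Of the 9 genes, 7 had at least 1 probe set annotated to a single gene symbol, with 18 probe sets in all, out of 18140 genes and 34758 such probe sets on the array. Uhrf1 had no such probe set, and the 3 probe sets of Tdg are also annotated to its pseudogenes, so these genes were not analysed here. Of the 7 genes, 6 passed the filter on low values, and Tet3 did not.

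RNA was hybridised to 8 one-colour Affymetrix arrays in 4 groups of 2. The cells were mouse embryonic stem cells of the line V6.5 with a lentiviral short hairpin RNA. The CapH2 knockdown (gene Ncaph2, a subunit of condensin II) used hairpins 3 and 4, and the Smc2 knockdown (a subunit of condensin I and II) used hairpins 1 and 2, with 1 array for each hairpin. The Smc1 knockdown (gene Smc1a, a cohesin subunit) and the control, a hairpin against GFP, had 2 biological replicates of a single hairpin each. All cells, the GFP control included, were infected in 8 µg/ml polybrene, were selected in 4 µg/ml puromycin for 4 days and gave RNA on day 5. With 1 hairpin each for Smc1 and GFP, off-target effects there cannot be told apart from effects of the target.

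In mammals DNMT3A and DNMT3B place methyl groups on CpG sites that had none, with DNMT3L as a cofactor that has no catalytic activity of its own. DNMT1 copies the pattern onto the new strand after replication, and UHRF1 brings it to hemimethylated sites. The TET proteins oxidise the methyl group, and TDG cuts out the oxidised bases. In mouse embryonic stem cells Dnmt3a, Dnmt3b and Dnmt3l are all expressed, Tet1 and Tet2 are the main Tet genes, and the passage towards the primed epiblast state is known to raise Dnmt3a and Dnmt3b.

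The values are intensities, 1 linear summary per probe set and array. The array medians lay between 62.5 and 74.5. Differences were tested with limma on log2(intensity + 16) over 12400 genes, with the brightest probe set standing for each gene, and an adjusted p (Benjamini-Hochberg) below 0.05 counted as a call. Fold changes and log2 changes are on that scale. Each targeted gene fell in its own knockdown: the log2 change was -2.96 for Ncaph2, -1.64 for Smc2 and -2.95 for Smc1a. Of 10 stem cell markers, all lay above the array median on all 8 arrays. Arrays of 1 group correlated at 0.968 to 0.981 (Pearson, 4 pairs) and arrays of different groups at 0.914 to 0.985 (24 pairs), across genes, which are no independent replicates. The Smc1 arrays had less stem cell marker signal than the GFP arrays (summed intensity over 10 genes 64160 and 80090 against 117600 and 115600). In bulk RNA, fewer cells of a type and less RNA per cell cannot be told apart.

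The 2 upstream regions below show the CpG content at the start of the de novo enzyme gene with the largest change and at that of its cofactor gene, which was not called. The letters are from RefSeq on GRCm38.p6, run 5′ to 3′ on the plus strand, end where the annotated gene begins, and have each CpG site in capitals. The region of Dnmt3b is chr2:153649199-153649410 and that of Dnmt3l is chr10:78042037-78042286.
Dnmt3b: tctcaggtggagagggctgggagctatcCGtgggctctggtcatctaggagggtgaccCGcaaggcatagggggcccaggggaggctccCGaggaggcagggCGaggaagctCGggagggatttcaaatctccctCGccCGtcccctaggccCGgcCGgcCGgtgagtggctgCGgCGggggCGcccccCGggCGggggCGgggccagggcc
Dnmt3l: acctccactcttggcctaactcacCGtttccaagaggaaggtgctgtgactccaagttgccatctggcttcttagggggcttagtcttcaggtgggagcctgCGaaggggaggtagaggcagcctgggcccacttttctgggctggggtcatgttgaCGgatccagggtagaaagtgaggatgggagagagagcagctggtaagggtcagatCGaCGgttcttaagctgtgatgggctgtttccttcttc

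The 212 bases of Dnmt3b held 16 CpG sites at 73.6% G+C, with an observed over expected CpG ratio of 0.582. Of 32851 promoter windows of the same length in the table, 18.3% had at least as many CpG sites, and the median was 4. The 250 bases of Dnmt3l held 5 CpG sites at 55.6% G+C, with a ratio of 0.272. At that length 55.6% of the windows had at least as many, and the median was 6. The GC box GGGCGG or its reverse complement CCGCCC, counted on both strands, occurred 2 times upstream of Dnmt3b and 0 times upstream of Dnmt3l. It was present in 27.2% of all windows of 212 bases and 32.7% of those of 250. The RefSeq table lists 1 start for Dnmt3b and 3 for Dnmt3l, of which the outermost is shown. The arrays do not measure which start was in use.

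The change of each gene across the knockdowns was the first question. Dnmt3b, which methylates new sites, was higher in each knockdown than in GFP and was called in the Smc1 knockdown. Its intensity was 9522 for CapH2 hairpin 3 and 4871 for hairpin 4, 12177 for Smc2 hairpin 1 and 2928 for hairpin 2, 8532 and 8935 on the Smc1 arrays, and 1850 and 2511 on the GFP arrays. All 6 knockdown arrays lay above both GFP arrays. The share of all genes with this joint pattern was not counted. The Smc1 arrays were close together, while hairpins of the same condensin target differed, with Smc2 hairpin 2 only just above GFP. From high to low the log2 means ran Smc1, CapH2, Smc2, GFP, and neighbours overlapped except for Smc2 and GFP. In the Smc1 knockdown Dnmt3b averaged 8734 ± 285 against 2180 ± 468 in GFP (SD, n = 2 per group). On the log2 scale it rose by 2.01 (SE 0.533, limma adjusted p = 0.0345), or 4.03-fold. In this comparison limma called 2 of the 6 genes, Dnmt3b and Tet2. Of all genes 14.1% were called, 9.38% as higher, and 34.6% had both Smc1 arrays above both GFP arrays.

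The condensin knockdowns gave Dnmt3b log2 changes of 1.65 for CapH2 (SE 0.533, limma adjusted p = 0.304) and 1.46 for Smc2 (SE 0.533, limma adjusted p = 0.320), which were not called. In each of these comparisons limma called 0 of the 6 genes, where it called 0.0161% of all genes. At an unadjusted p below 0.05 lay 2 of the 6, Dnmt3a and Dnmt3b, in each comparison, and 12.6% of all genes in each. Both knockdown arrays lay above both GFP arrays for 25.3% of genes with CapH2 and 23.2% with Smc2. The 3 comparisons share the GFP arrays. Without Smc2 hairpin 2 the Smc2 value was 2.49 and was called (limma adjusted p = 0.0211), and 0.44 remained without Smc2 hairpin 1 (0.942). The dimmer probe set of Dnmt3b read 2218 and 1066 on CapH2, 2327 and 905.2 on Smc2, 1896 and 2064 on Smc1, and 738.4 and 820.5 on GFP. Its order of arrays within each condensin knockdown was the same, and its log2 change in Smc1 was 1.33 (SE 0.408, limma adjusted p = 0.0574 over 21730 probe sets), where 12.7% of probe sets were called, 7.92% as higher.

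**Figure D1:**
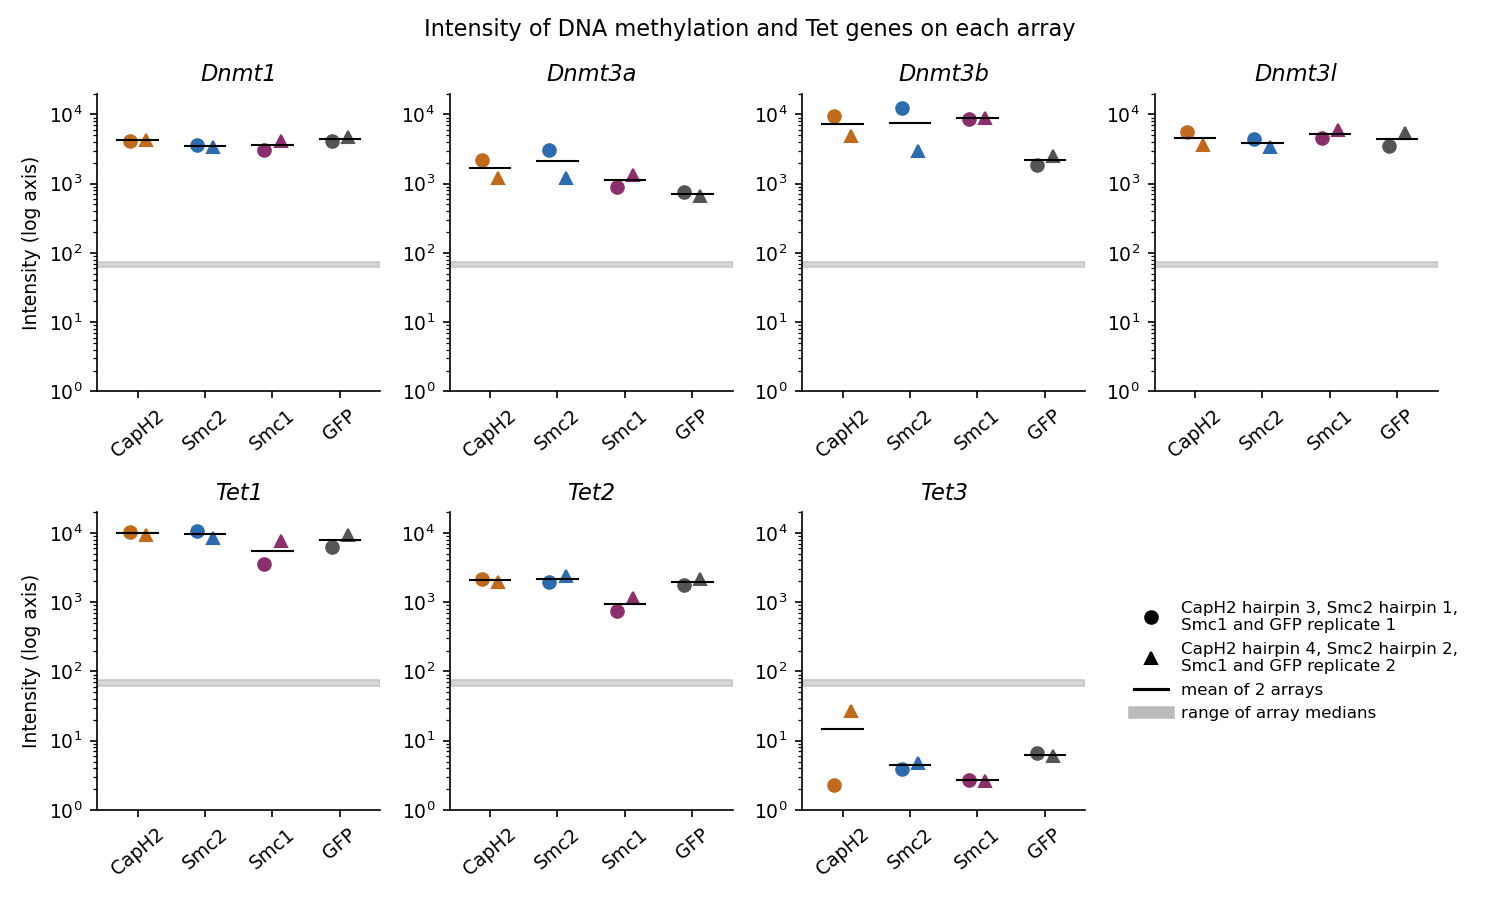
Intensity (log axis) of the probe set that stands for each gene, with 1 panel per gene, 1 point per array and a line at the mean of the 2 arrays. The grey band spans the array medians of 62.5 to 74.5. Dnmt3b and Dnmt3a lie above GFP on all 6 knockdown arrays, Tet2 is lowest on the Smc1 arrays, and Tet3 lies below the band.

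The call of Dnmt3b in Smc1 was lost without any of the 4 arrays compared: the log2 change was 2.04 and 1.98 without Smc1 replicate 1 or 2, and 1.79 and 2.23 without GFP replicate 1 or 2 (limma adjusted p = 0.167, 0.110, 0.210 and 0.104). The call was also lost with no filter, with the mean of its probe sets and with no intensity trend (limma adjusted p = 0.0605, 0.0663 and 0.0803). Over all alternatives the adjusted p ran from 4.86e-05, with a fit of these 2 groups alone, to 0.298. That highest value came with the 3' to 5' ratio of the Actb control probe sets, a sign of RNA and labelling quality, as a term: the log2 change was then 0.65 (SE 0.336, limma adjusted p = 0.298). The ratio was 1.67 and 1.98 on CapH2, 1.82 and 2.18 on Smc2, 1.70 and 1.84 on Smc1, and 2.18 and 2.04 on GFP. The 4 arrays with the lowest ratio were the 4 with the highest Dnmt3b intensity. With the term, the Dnmt3b change was 0.51 in CapH2 and 1.03 in Smc2 (limma adjusted p = 0.808 and 0.116).

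Dnmt3a, the other de novo enzyme gene, was also higher on all 6 knockdown arrays, without a call. Taken singly, CapH2, Smc2 and Smc1 lay above both GFP arrays for 25.3, 23.2 and 34.6% of all genes. The knockdowns share the GFP arrays, and the share of genes with the joint pattern was not counted. Its intensity was 2176 for CapH2 hairpin 3 and 1203 for hairpin 4, 3086 for Smc2 hairpin 1 and 1194 for hairpin 2, 903.7 and 1334 on Smc1, and 763.4 and 662.8 on GFP. The highest arrays were again CapH2 hairpin 3 and Smc2 hairpin 1, and here the Smc1 mean came closest to that of GFP. From high to low the log2 means ran Smc2, CapH2, Smc1, GFP, and neighbours overlapped except for Smc1 and GFP. The log2 changes were 1.17 in CapH2, 1.41 in Smc2 and 0.62 in Smc1 (SE 0.416 each, limma adjusted p = 0.329, 0.248 and 0.349). The Smc2 value was 2.09 without Smc2 hairpin 2 and was then called (limma adjusted p = 0.0348). In Smc1 the Actb term turned the direction, to -0.20 (limma adjusted p = 0.811).

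Each of the 5 probe sets of Dnmt3a lay above both GFP arrays in each of the 3 knockdowns. Their log2 changes ran from 0.31 to 1.61 in CapH2, from 0.45 to 1.77 in Smc2 and from 0.48 to 1.00 in Smc1. None was called. Over all probe sets limma called 0.0092% in CapH2, 0.0092% in Smc2 and 12.7% in Smc1, there 7.92% as higher. Both arrays lay above both GFP arrays for 23.7, 21 and 31.3% of all probe sets tested in CapH2, Smc2 and Smc1. Probe sets of 1 gene share its RNA and are not independent. The dimmest of the 5 read 259.6 and 252.5 on CapH2, 311.5 and 254.9 on Smc2, 249.1 and 334.4 on Smc1, and 242.5 and 169.2 on GFP. On it the gap between the condensin hairpins was small, unlike on the brightest probe set.

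**Figure D2:**
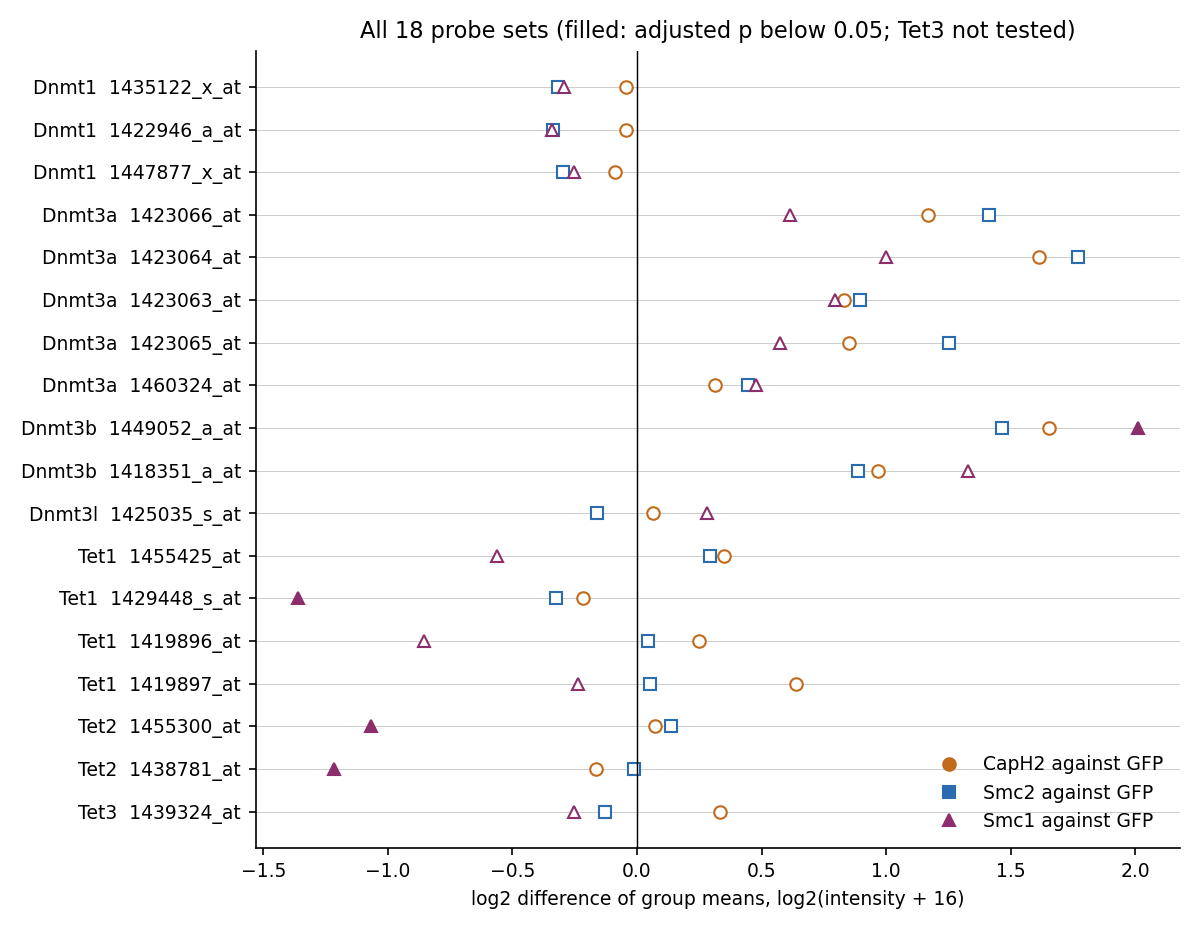
Log2 difference of each knockdown from GFP for all 18 probe sets of the 7 genes (horizontal axis), with probe sets of a gene ordered from bright to dim. The 7 probe sets of Dnmt3a and Dnmt3b lie to the right of 0 in all 3 knockdowns, and filled symbols mark the 4 called values, all in Smc1.

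Primed epiblast markers and the Actb ratio were set beside the de novo enzyme genes array by array. The summed intensity of 8 primed epiblast markers was 6256 and 4559 on CapH2, 7117 and 3689 on Smc2, 5400 and 8735 on Smc1, and 3035 and 4470 on GFP. CapH2 hairpin 3 and Smc2 hairpin 1 were higher in this sum than the other hairpin of the same target, as they were for Dnmt3a and Dnmt3b. Between the Smc1 arrays, replicate 2 was higher in the sum and in Dnmt3a, while Dnmt3b was close on both (8532 and 8935). Zic5, a large part of the sum, read 2063 and 2058 on CapH2 and 2540 and 1313 on Smc2. Of 7 markers tested, 3 rose in Smc1, where 9.38% of all genes did. The log2 changes were 2.23 for Pou3f1, 1.85 for Cldn6 and 1.59 for Sox3 (limma adjusted p = 0.0204, 0.00333 and 0.0155). Of the 7 changes in Smc1, 5 were above 0 and 2 below. Zic2 averaged 283.1 in Smc1 against 328.9 in GFP, and Zic5 1253 against 1400. Otx2 differed between the Smc1 arrays, at 673.1 and 2699. In CapH2 and Smc2 limma called 0 of the 7 markers, and 2 in each had an unadjusted p below 0.05, as did 12.6% of all genes in each. Fgf5, a defining marker of the primed state, was above the array median on 1 array. Of 11 feeder fibroblast markers the summed intensity was 5474 and 3634 on CapH2, 2895 and 5236 on Smc2, 7582 and 7524 on Smc1, and 5130 and 6703 on GFP. Most of this sum was Sparc (6021 and 6163 on Smc1), which is also among the primitive endoderm markers given below. Of these 11 markers, 5 (Col1a2, Col5a1, Col5a2, Sparc and Loxl1) were above the array median on all 8 arrays, and 2 (Lum and Dcn) on 0. Of 9 feeder markers tested, Col3a1 rose in Smc1 (1.92, limma adjusted p = 0.0154) and 0 fell. An unadjusted p below 0.05 was found for 3 of the 9, and for 31.2% of all genes. Of the 9 changes in Smc1, 6 were above 0 and 3 below, with Postn at 22.8 against 70.6 in GFP and Thy1 at 81.5 against 110.3. The part of these marker genes in the results was not tested.

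**Figure D3:**
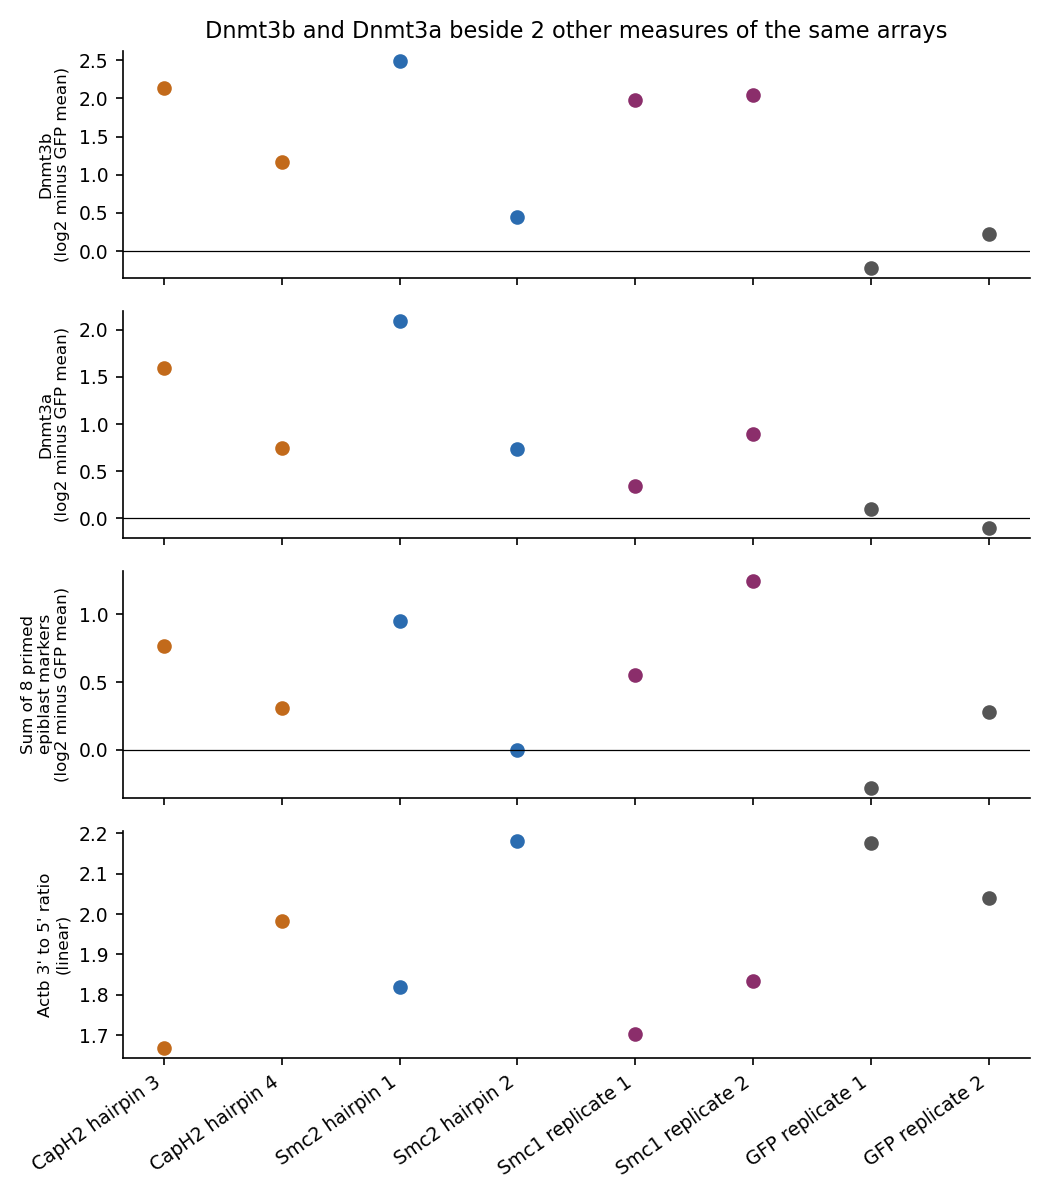
The 8 arrays from left to right, with log2 values relative to the GFP mean for Dnmt3b, Dnmt3a and the sum of 8 primed epiblast markers, and the Actb 3' to 5' ratio on a linear axis below. Dnmt3b is between 1.17 and 2.49 above GFP on 5 knockdown arrays and 0.44 above it on Smc2 hairpin 2, which has the highest Actb ratio of the knockdown arrays.

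Dnmt3l, the cofactor gene of the de novo enzymes, was not called in any comparison, and its groups overlapped in all 5. It measured 5656 and 3600 on CapH2, 4451 and 3341 on Smc2, 4573 and 6008 on Smc1, and 3485 and 5331 on GFP. The 2 GFP arrays alone differed by more than any group mean did from GFP. The log2 changes were 0.07 in CapH2, -0.16 in Smc2 and 0.28 in Smc1 (SE 0.271 each, limma adjusted p = 0.937, 0.822 and 0.517). Each of these 3 changes turned its sign when 1 of the arrays compared was left out. From high to low the log2 means ran Smc1, CapH2, GFP, Smc2, with overlap between all neighbours.

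Dnmt1, the maintenance enzyme gene, varied least of the 6 genes tested, with the brightest array 1.53 times the dimmest. It measured 4191 and 4259 on CapH2, 3573 and 3406 on Smc2, 3051 and 4137 on Smc1, and 4062 and 4661 on GFP. Both Smc2 arrays lay below both GFP arrays and below both CapH2 arrays, and the Smc1 arrays lay far apart. The log2 changes against GFP were -0.04 in CapH2, -0.32 in Smc2 and -0.29 in Smc1 (SE 0.173 each, limma adjusted p = 0.936, 0.455 and 0.285), and none was called. All 3 probe sets of Dnmt1 were below GFP in Smc2 without overlap, with log2 changes of -0.30, -0.32 and -0.34, as were 24% of all probe sets and, by gene, 21.7% of all genes. From high to low the log2 means ran GFP, CapH2, Smc1, Smc2, and CapH2 and Smc1 were the only neighbours without overlap.

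S phase genes are given beside Dnmt1, whose protein acts at replication forks. Of 19 S phase genes tested, 5 fell in Smc1, where 4.69% of all genes did, and 14 did not pass (median log2 change -0.38, against 0.03 over all genes). Rrm2, a ribonucleotide reductase subunit gene, fell by 0.64 (limma adjusted p = 0.00729), and Gins1, a replicative helicase subunit gene, fell by 0.75 (limma adjusted p = 0.0106). In CapH2 and Smc2 the medians of the 19 genes were -0.06 and -0.05, and limma called 0. An unadjusted p below 0.05 was found for 1 and 0 of them, and for 12.6% of all genes in each. The part of this list in the Dnmt1 values was not tested.

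The Tet genes turn the methyl mark into oxidised forms, and of these Tet2 fell in the Smc1 knockdown. Tet2 measured 2149 and 1970 on CapH2, 1971 and 2348 on Smc2, 741.0 and 1155 on Smc1, and 1760 and 2173 on GFP. The Smc1 arrays were the lowest of all 8, and the other 3 groups overlapped. Tet2 averaged 948.0 ± 293 in Smc1 against 1967 ± 292 in GFP (SD, n = 2 per group). The log2 change was -1.07 (SE 0.230, limma adjusted p = 0.0158). In this comparison 4.69% of all genes were called lower, and 28.4% had both Smc1 arrays below both GFP arrays. Its other probe set read 856 and 995 on CapH2, 852 and 1238 on Smc2, 333.3 and 570.9 on Smc1, and 1118 and 960.5 on GFP, and fell by 1.22 in Smc1 (SE 0.275, limma adjusted p = 0.0187 over all probe sets, where 4.79% were called lower). In CapH2 and Smc2 the Tet2 log2 changes were 0.07 and 0.14 (SE 0.230 each, limma adjusted p = 0.915 and 0.820).

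The Tet2 call against GFP was lost without Smc1 replicate 1 (-0.75, limma adjusted p = 0.142), GFP replicate 1 (-1.22, 0.0768) or GFP replicate 2 (-0.92, 0.107), and with the Actb term (-0.94, 0.0874). Its adjusted p over all alternatives was between 0.0064 and 0.142. From high to low the log2 means ran Smc2, CapH2, GFP, Smc1, and GFP and Smc1 were the only neighbours that did not overlap.

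Markers of stem cells and of other lineages moved in Smc1 along with Tet2. Of 10 stem cell markers 8 fell in Smc1, where 4.69% of all genes did. In CapH2 and Smc2 limma called 0 of the 10, with 3 and 1 at an unadjusted p below 0.05, where 12.6% of all genes lay in each. The summed intensity of 10 trophectoderm markers was 19440 and 10460 on CapH2, 12690 and 18500 on Smc2, 52840 and 38230 on Smc1, and 18550 and 26450 on GFP, and of 9 tested 2 rose and 1 fell in Smc1. That of 11 primitive endoderm markers was 11900 and 7951 on CapH2, 6405 and 9917 on Smc2, 14950 and 15040 on Smc1, and 8701 and 11350 on GFP. Of 9 tested 2 rose in Smc1. Of all genes 9.38% were called higher in Smc1 and 4.69% lower. Both sums were highest on the Smc1 arrays. Krt8, Krt18 and Krt19 made up most of the trophectoderm sum, and Sparc, Lamb1 and Col4a1 most of the primitive endoderm sum. In Smc1 6 tested trophectoderm markers changed above 0 and 3 below, and 7 primitive endoderm markers above and 2 below. Tfap2c was lower (1150 and 1251 in Smc1 against 2816 and 4225 in GFP), as was Gata6 (110.1 and 94.0 against 131.3 and 176.0). Of the 10 trophectoderm markers 6 were above the array median on all 8 arrays, among them Krt8, Krt18 and Eomes. Of the 11 primitive endoderm markers, Gata6, Dab2, Col4a1, Lamb1 and Sparc were above the array median on all 8. Cdx2 was above it only on the 2 Smc1 arrays (34.2 and 23.0 on CapH2, 54.8 and 35.4 on Smc2, 239.7 and 118.0 on Smc1, and 7.25 and 28.8 on GFP). Elf5 and Afp were above it on 0 arrays. The part of these lineages in the Tet2 values was not tested.

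Tet1, a paralog of Tet2 with high expression in stem cells, gave different results on different probe sets. The brightest probe set measured 10299 and 9350 on CapH2, 10667 and 8326 on Smc2, 3596 and 7520 on Smc1, and 6306 and 9393 on GFP. Smc1 replicate 1 was the lowest array, and Smc1 replicate 2 lay between the GFP arrays. The log2 change in Smc1 was -0.56 (SE 0.307, limma adjusted p = 0.243), with -0.03 without Smc1 replicate 1 and -1.10 without Smc1 replicate 2, which was called (limma adjusted p = 0.0356). In CapH2 and Smc2 it was 0.35 and 0.29 (SE 0.307 each, limma adjusted p = 0.643 and 0.707). From high to low the log2 means ran CapH2, Smc2, GFP, Smc1, with overlap between all neighbours.

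A second Tet1 probe set, 1429448_s_at, read 3059 and 4029 on CapH2, 2938 and 3625 on Smc2, 1083 and 2306 on Smc1, and 4153 and 4024 on GFP. Here both Smc1 arrays lay below all others (29.9% of all probe sets were below GFP in Smc1 without overlap), and the log2 change of -1.36 was called (SE 0.297, limma adjusted p = 0.0164 over all probe sets). Probe set 1419896_at read 1235 and 1346 on CapH2, 1342 and 928.9 on Smc2, 366.7 and 948.2 on Smc1, and 977.2 and 1201 on GFP, a log2 change of -0.86 in Smc1 that was not called (limma adjusted p = 0.146). The fourth stayed between 32.6 and 93.2 on all arrays, around the array medians. With the mean of all 4 probe sets the change of Tet1 in Smc1 was -0.76 (limma adjusted p = 0.0889).

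Tet3, the remaining Tet gene, was below the array median on all 8 arrays and was not tested. It read 2.29 and 27.0 on CapH2, 3.95 and 4.84 on Smc2, 2.75 and 2.61 on Smc1, and 6.63 and 5.96 on GFP. No detection calls were used here, so these values set no level.

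**Figure D4:**
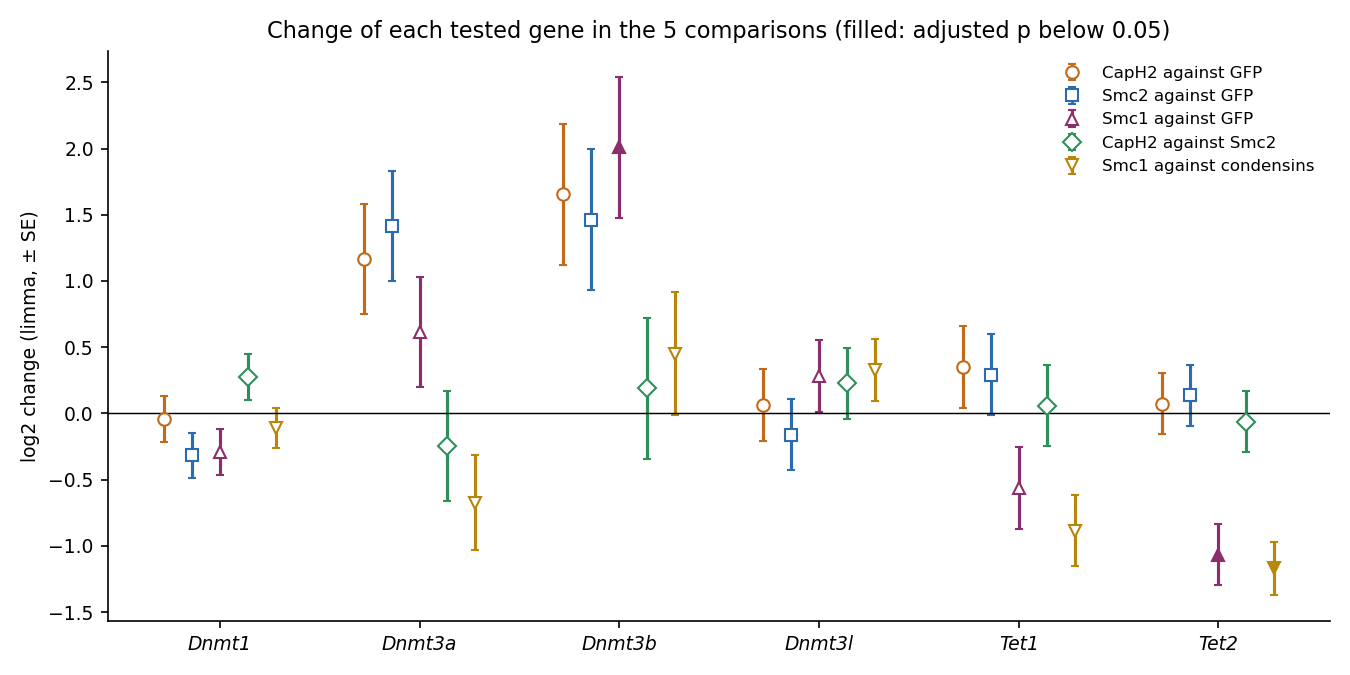
Log2 change with its limma standard error (vertical axis) of the 6 genes tested in the 5 comparisons, with 2 arrays per knockdown or control and 4 for the condensin knockdowns together, and filled symbols for an adjusted p below 0.05. The 3 filled symbols are Dnmt3b (2.01) and Tet2 (-1.07) in Smc1 against GFP and Tet2 (-1.17) in Smc1 against the condensin knockdowns.

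Whether cohesin and condensin knockdowns differ in these genes was tested directly, with the mean of the CapH2 and Smc2 groups set against Smc1. Tet2 was lower in Smc1 (log2 difference -1.17, SE 0.199, limma adjusted p = 0.0103, with 2 of 2 Smc1 arrays below all 4 condensin arrays), and it was the 1 gene of the 6 that was called. In this comparison 7.85% of all genes were called, 2.24% as lower, and 14.6% had both Smc1 arrays below all 4 condensin arrays. Both Tet2 probe sets were called, the dimmer at -1.13 (limma adjusted p = 0.0230 over all probe sets), where 6.06% of probe sets were, 1.84% as lower. The call was lost without Smc1 replicate 1 (-0.86, limma adjusted p = 0.163). With the Actb term it was -1.12 (limma adjusted p = 0.00841).

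Tet1 was lower on both Smc1 arrays than on all 4 condensin arrays, by 0.88 on the log2 scale (a log2 difference of -0.88, SE 0.266, limma adjusted p = 0.0732), and was not called. It was called with median centring (-0.95, limma adjusted p = 0.0462), with the mean of its probe sets (-0.89, 0.0480) and without Smc1 replicate 2 (-1.42, 0.0213), but was -0.35 without Smc1 replicate 1 (0.551). Probe set 1429448_s_at was called at -1.09 (limma adjusted p = 0.0342 over all probe sets). Dnmt3b (0.45, limma adjusted p = 0.608), Dnmt3a (-0.68, 0.295), Dnmt3l (0.33, 0.445) and Dnmt1 (-0.11, 0.707) were not called. The Dnmt3a difference was -1.02 and was called with the Actb term (0.0380) or without Smc2 hairpin 2 (0.0394), and that of Dnmt3b was 0.96 and was called without Smc2 hairpin 1 (0.0483).

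The direct comparison of the condensin knockdowns, CapH2 against Smc2, called 0 of the 6 genes with limma, and 0 had an unadjusted p below 0.05. The log2 differences ran from -0.25 for Dnmt3a to 0.28 for Dnmt1. Over all genes the shares were 0.00806% called and 1.03% at an unadjusted p below 0.05. Dnmt1 was higher on both CapH2 arrays than on both Smc2 arrays (0.28, SE 0.173, limma adjusted p = 1.00), as were 12.6% of all genes. For Dnmt3b the SE of 0.533 was larger than the difference of 0.19. A missed threshold does not show that the condensin knockdowns act alike on these genes.

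Genes that work with the DNA methylation enzymes were counted in lists. In Smc1 limma called 14.1% of all genes, 9.38% as higher and 4.69% as lower. Counts of 1 or 2 calls, taken over both directions, in a list of 8 to 14 genes are near the 14.1%. Of 8 methyl-CpG reader genes tested, 1 rose and 0 fell in Smc1 (median log2 change 0.32, against 0.03 over all genes): Mbd1, which codes for a repressor that binds methylated CpG, had 596.4 and 544.9 in Smc1 against 268.3 and 257.2 in GFP (1.07, limma adjusted p = 0.00914). Of 8 maintenance partners, such as Hells, a chromatin remodeller gene, limma called 0 in Smc1, with 2 at an unadjusted p below 0.05, as were 31.2% of all genes (median -0.25). Of 11 genes that target or protect methylated DNA, 1 fell (median -0.19). This was Prdm14, whose protein is known in mouse stem cells to repress de novo methyltransferase genes.

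Prdm14 read 860.6 and 1247 on CapH2, 716.8 and 1064 on Smc2, 192.6 and 438.9 on Smc1, and 2159 and 2487 on GFP. It lay below both GFP arrays in each knockdown (as did 21.9% of all genes in CapH2, 21.7% in Smc2 and 28.4% in Smc1), lowest in Smc1 (-2.92, SE 0.353, limma adjusted p = 0.00237) and without a call in CapH2 (-1.15, 0.289) and Smc2 (-1.39, 0.227). Within each condensin knockdown the hairpin with the lower Prdm14 value was the one with the higher Dnmt3a, Dnmt3b and Dnmt3l values. Between the Smc1 arrays the one lower in Prdm14 was lower in Dnmt3a, Dnmt3b and Dnmt3l. Each of these orders sets 1 array against 1 array, and the part of Prdm14 in the values was not tested.

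Of 9 CXXC and Tet partner genes, 1 fell in Smc1 (median -0.05). It was Nanog, a pluripotency factor known to bind TET1 in mouse stem cells (-0.73, limma adjusted p = 0.00521). Nanog is also among the stem cell markers counted above as fallen in Smc1. Of 14 genes of base excision and deamination, 2 fell and 0 rose (median -0.19), where 4.69% of all genes fell and 14.1% were called in either direction. The 2 genes were Apobec3, a cytidine deaminase gene (-1.62, limma adjusted p = 0.00676), and Ung, the uracil DNA glycosylase gene (-0.96, limma adjusted p = 0.0210). Of 10 genes of S-adenosylmethionine supply, 1 fell and 5 had an unadjusted p below 0.05, where 31.2% of all genes did (median -0.49). The fallen gene, Ahcy, removes the by-product of methylation and had 8209 and 8784 in Smc1 against 12999 and 11997 in GFP (-0.56, limma adjusted p = 0.0180). In CapH2 and in Smc2 limma called 0 genes of each list. At an unadjusted p below 0.05 lay 1 to 5 per list in CapH2 and 0 to 4 in Smc2, and 12.6% of all genes in each.

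**Figure D5:**
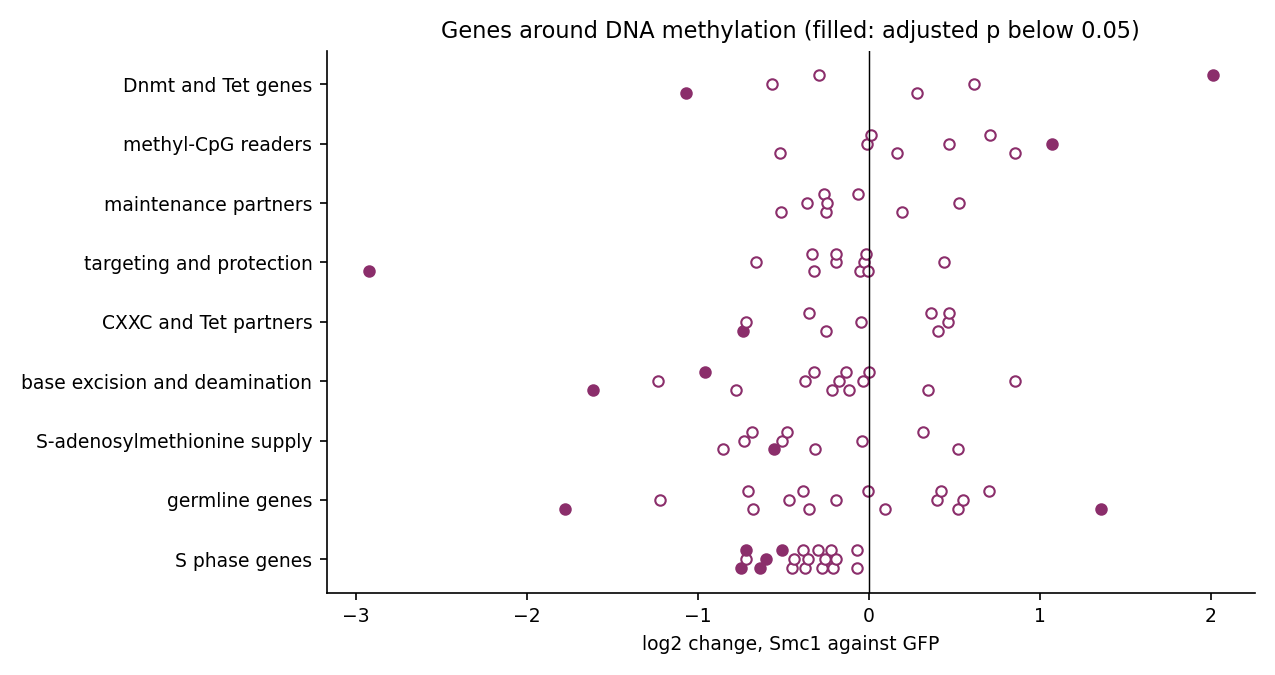
Log2 change in Smc1 against GFP (horizontal axis) of each tested gene, by list, with filled points for an adjusted p below 0.05. The 19 S phase genes all lie to the left of 0, and the point farthest left is Prdm14 at -2.92.

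The genes whose profile over the 8 arrays was most like that of the 3 members with the widest range of group means were named by the root mean square difference of log2 values relative to GFP, among 12394 genes. For Dnmt3b these were Trh (0.162), Bend3 (0.205) and Pou3f1 (0.282), a primed epiblast transcription factor gene, with log2 changes in Smc1 of 1.99, 2.20 and 2.23. For Dnmt3a they were Slc7a3 (0.278), Arr3 (0.287) and Fbp1 (0.294), with changes in Smc1 between 0.56 and 0.73. For Tet2 they were Spn (0.168), Itpka (0.175) and Kat6b (0.177), with changes in Smc1 between -0.96 and -0.86.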

How the data were processed

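Expression was measured in 8 mouse embryonic stem cell samples. The authors deposited 1 intensity per probe set and array (44903 probe sets). Per the labels, RNA was labelled by the 3' in vitro transcription protocol from 100 ng; the summarisation method was not found in the labels or headers used here. The means trimmed by 2% were 488.9 to 490.0 on all arrays, so the values were used without further normalization. Of the probe sets, 34758 had 1 symbol, 926 several, 9155 none and 64 were array controls; only the first were used, named by the GRCm38.p6 gene table (34554 matched by identifier, 0 symbols changed). The filter kept features brighter than their array's median on at least 2 of 8 arrays. All 8 arrays were fitted with limma 3.58.1 in R 4.3.3 (group means; degrees of freedom 4 residual and 5.95 prior, with a trend on intensity), and p-values were adjusted over all genes within each of 5 comparisons. A separate fit took each of 21730 probe sets as a feature. The fit was tested on simulated data. The number of arrays, 2 per group, limits precision; the CapH2 and Smc2 spread includes differences between hairpins. The members and lists were chosen with earlier results of these data known. All members were named, with up to 4 called genes of each list per direction, and the 3 closest profiles. Alternatives changed the pseudocount, filter, scaling, probe set choice, trend, arrays fitted, an Actb term and a replicate block, and left out each array.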

Additional observations from a re-analysis of the deposited data

How the results depend on the processing

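Of 540 values of the 6 genes under 18 alternatives, 489 had the direction and the side of the threshold reported, 14 lost a call, 10 gained one and 27 turned direction; none that turned had been called. Turned without leaving out an array were Dnmt1 in CapH2 (0.026 with median centring), Tet2 in CapH2 (-0.046 with the mean of probe sets) and, with the Actb term, Dnmt3l in CapH2 (-0.33), Dnmt3a and Dnmt3l in Smc1 (-0.20 each), Dnmt3b, Dnmt3l and Tet2 in CapH2 against Smc2 (-0.52, -0.021 and 0.0011) and Dnmt3b in Smc1 against condensins (-0.12); the cause was not tested. Leaving out 1 array gave, against GFP, -0.14 to 0.056 for Dnmt1, -0.26 to 0.39 for Dnmt3l and -0.078 to 0.22 for Tet2 in CapH2, -0.47 to 0.15 for Dnmt3l and -0.014 to 0.29 for Tet2 in Smc2, and -0.024 to 0.59 for Dnmt3l in Smc1. In CapH2 against Smc2 it gave -0.92 to 0.43 for Dnmt3a, -0.84 to 1.21 for Dnmt3b, -0.10 to 0.55 for Dnmt3l, -0.12 to 0.24 for Tet1 and -0.19 to 0.061 for Tet2, and in Smc1 against condensins -0.33 to 0.11 for Dnmt1 and -0.061 to 0.96 for Dnmt3b.

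Called members in Smc1 against GFP numbered 2, and 1 with no filter, the mean of probe sets or no intensity trend, 0 with the Actb term (1 at an unadjusted p below 0.05, limma) and 0 to 2 without 1 array. In Smc1 against condensins they numbered 1, and 2 with median centring, the mean of probe sets or the Actb term, and 0 to 2 without 1 array; in Smc2 against GFP they numbered 0 to 2. Called genes in CapH2 against GFP numbered 2 (mean of probe sets 1, no trend 1, only the groups compared 11, leaving out 1 array 0 to 7). In Smc2 against GFP there were 2 (mean of probe sets 1, Actb term 58, and in limma 0 with no trend or only the groups compared, with 1494 and 1479 at an unadjusted p below 0.05; 0 to 195 without 1 array). In Smc1 against GFP there were 1745 (only the groups compared 2693, Actb term 574, 140 to 2196 without 1 array, with 140 and 1052 without Smc1 replicate 1 and 2 and 233 and 562 without GFP replicate 1 and 2). In CapH2 against Smc2 there was 1 (quantile 2, Actb term 2, and in limma 0 with the mean of probe sets, no trend or only the groups compared, with 193, 224 and 89 at an unadjusted p below 0.05; 0 to 3 without 1 array). In Smc1 against condensins there were 973 (no filter 602, only the groups compared 608, Actb term 1662, 10 to 1166 without 1 array, with 10 and 382 without Smc1 replicate 1 and 2, 467 without CapH2 hairpin 4, and 594 and 571 without GFP replicate 1 and 2).

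The replicate 1 deviations of Smc1 and GFP had a correlation of 0.0661 across 12400 genes, which does not decide a pairing for single genes. Dnmt1, Dnmt3b, Dnmt3l, Tet1 and Tet2 were lower on replicate 1 than on replicate 2 in both groups, and Dnmt3a was not. The Smc1 and GFP arrays share a replicate number in their titles, which state no pairing. With a replicate block for that number, called members were 1 in Smc1 against GFP (Dnmt3b 2.01, limma adjusted p = 0.0657) and 2 in Smc1 against condensins (Tet1 -0.88, limma adjusted p = 0.0238), and limma called 0 genes in Smc2 against GFP (1485 at an unadjusted p below 0.05).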

Other observations

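Germline genes whose promoters are known to be methylated in mouse cells were set beside the methylation enzymes. The summed intensity of 21 such genes was 9237 for CapH2 hairpin 3 and 12060 for hairpin 4, 10500 for Smc2 hairpin 1 and 14670 for hairpin 2, 12270 and 16950 on Smc1, and 18990 and 17450 on GFP. All 6 knockdown arrays lay below both GFP arrays in this sum. The same held for the sums of the stem cell markers, the CXXC and Tet partners, and the base excision and deamination genes. It is thus not particular to the germline list, and the share of all genes with this joint pattern was not counted. Of 16 tested, 11 in CapH2 and 9 in Smc2 lay below GFP without overlap, where 21.9 and 21.7% of all genes did, and 1 in CapH2 and 2 in Smc2 lay above it. In Smc1 6 lay below and 5 above, where 28.4 and 34.6% of all genes did. In CapH2 and Smc2 the median log2 changes of the list were -0.62 and -0.31 (0.01 and -0.005 over all genes). With limma 0 were called in CapH2 or Smc2, and 9 and 3 had an unadjusted p below 0.05, where 12.6% of all genes did in each. In Smc1 the median was -0.10 (0.03 over all genes), with 9 changes below 0 and 7 above. Here limma called 1 gene in each direction, where 9.38% of all genes were called higher and 4.69% lower. Hormad1, a meiotic chromosome axis gene, was lower (-1.78, limma adjusted p = 0.0128). Slc25a31, a germ cell ADP/ATP carrier gene, was higher (1.36, limma adjusted p = 0.0141).

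Dazl, a germ cell RNA-binding protein gene, was chosen after its values were seen, as the gene of this list with the lowest change in CapH2. It read 466.2 and 672.3 on CapH2, 533.3 and 1292 on Smc2, 676.6 and 1379 on Smc1, and 1830 and 2832 on GFP. Its log2 change in CapH2 was -1.99 (limma adjusted p = 0.195), so it was not called.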
